A study of Rattus norvegicus with 20 samples.

Results

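The response of each gene to cyclosporine A was set against its response to tacrolimus in whole rat kidney. The members were the nuclear protein-coding genes that carry the same gene identifier in both deposited tables, 22210 of the 32907 genes listed in either table, and 12825 of them had enough fragments in both tables to be tested. For each gene the difference was the cyclosporine A response (cyclosporine A minus saline vehicle) minus the tacrolimus response (tacrolimus minus its DMSO/PEG vehicle), on log2(FPKM + 1). FPKM is the number of fragments per length of gene and scaling total of the library, here rescaled within each table by the median of ratios, so that the median nuclear gene had the same ratio to a common reference in every library. A difference above 0 means that a gene stood higher, relative to its own vehicle, with cyclosporine A than with tacrolimus.

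All 20 samples were kidneys of wild-type (WT) male Wistar rats aged 10 to 12 weeks, with drug or vehicle given for 28 days from osmotic minipumps under the skin. Saline was the vehicle of cyclosporine A (n = 4 each), whose target trough level is written as 3 mg/ml in the design text. Tacrolimus had a target trough of 3.5 ng/ml and a vehicle of 25% DMSO and 75% PEG (n = 6 each). The comparisons differ in drug, in vehicle and in the table that holds them, and these cannot be told apart, and levels are not comparable between the tables. The labels number the samples as replicates without naming the animals, so the p-values measure the spread between these samples.

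Cyclosporine A binds cyclophilins and tacrolimus binds immunophilins of the FKBP family. Each complex blocks calcineurin, a calcium-dependent phosphatase that lets NFAT transcription factors enter the nucleus. Both are immunosuppressants used after transplantation. In the kidney they are known for constriction of blood vessels, scarring, hypertension, and disturbed handling of magnesium, calcium and potassium, which are regulated in the distal convoluted tubule and the connecting tubule.

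Assigned fragments per library ran from 30468767 to 34308899 for saline and cyclosporine A and from 31670202 to 39358485 for DMSO/PEG and tacrolimus. Fragments of nuclear genes numbered 10283971 to 17256748 with saline, 2905839 to 6549282 with cyclosporine A, 28339756 to 32748914 with DMSO/PEG and 29197997 to 34928612 with tacrolimus. The mitochondrial genome took 59.8% ± 7.97 (SD, n = 4) of the fragments with saline, 84.7% ± 4.68 (SD, n = 4) with cyclosporine A, 11.9% ± 1.13 (SD, n = 6) with DMSO/PEG and 12.4% ± 1.88 (SD, n = 6) with tacrolimus. The share thus moved 24.4 percentage points further with cyclosporine A (exact permutation test over 64680 arrangements, 2-sided p = 0.0199). The arrangements swapped drug and vehicle labels within each table, so this p is set against no response to either drug, not against equal responses. The part of the share in the gene differences was not tested beyond the fit with the share as a covariate given below. Kidney markers were present in every library, such as Umod (lowest 87.7 rescaled FPKM), Slc34a1 (lowest 76.6) and Aqp2 (lowest 47.3). Pvalb, a marker of the early distal convoluted tubule, was listed at 0 in all 20 libraries.

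The responses differed for 232 of the 12825 genes (1.81%), 120 above 0 (0.936%) and 112 below 0 (0.873%), at an adjusted p under 0.05 from limma fits in each table. At an unadjusted p under 0.05 there were 2063 genes (16.1%), 935 above 0 (7.29%) and 1128 below 0 (8.8%). Among the 232 the size of the difference had a median of 0.82 and ran from 0.40 to 3.06, and 61 genes were at 1 or more. Among the 232 the larger absolute response was that to cyclosporine A for 208 genes and that to tacrolimus for 24. This was not counted over all tested genes, and the cyclosporine A response had the larger median standard error (0.15 against 0.08). In 159 genes only the cyclosporine A response had an unadjusted p under 0.05, in 14 only the tacrolimus response had one, in 54 both had one with opposite signs, and in 5 both had one with the same sign, where such a p was reached by 16.2% of all tested genes with cyclosporine A and by 8.73% with tacrolimus. Cyclosporine A and saline libraries did not overlap for 203 of the 232 genes, where 10.9% of all tested genes did not overlap. Tacrolimus and DMSO/PEG libraries did not overlap for 21, where 0.951% of all tested genes did not. The 232 genes were called on these same values, so their counts beside all tested genes are a description. Tested against its own vehicle, cyclosporine A called 71 genes (0.554%) and tacrolimus 39 (0.304%), and Calb1 was the 1 gene called with both.

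**Figure D1:**
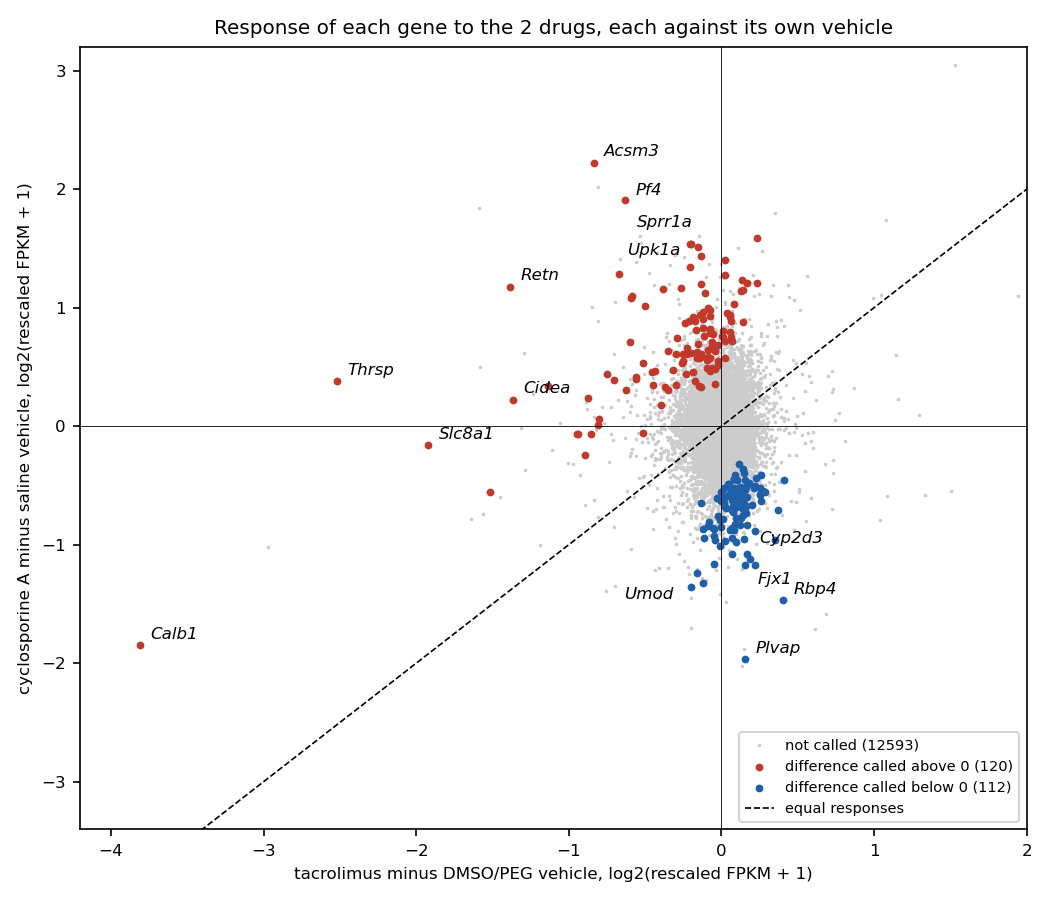
The tacrolimus response (x axis) and the cyclosporine A response (y axis) of the 12825 tested genes, both as differences of log2(rescaled FPKM + 1) from the drug's own vehicle. The 120 genes called above 0 (red) lie above the dashed line of equal responses and the 112 called below 0 (blue) lie under it, most of them near a tacrolimus response of 0, while Calb1, Thrsp and Slc8a1 stand far to the left.

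The precision differed between the tables. The median standard error was 0.15 for the cyclosporine A response, 0.08 for the tacrolimus response and 0.17 for the difference, and the cyclosporine A table supplied a median of 77.7% of the variance of the difference. The 95% interval of the difference lay within 0.5 of 0 for 4965 genes. Of the genes called with either drug, 2 had such an interval. Tgm3, a transglutaminase, had responses of −0.43 to cyclosporine A and −0.51 to tacrolimus (limma adjusted p = 5.4e-04 for tacrolimus), and a difference of 0.08 (95% interval −0.28 to 0.44). Sgpp2, a sphingosine phosphatase, had responses of −0.27 and −0.43 (limma adjusted p = 0.026 for tacrolimus), and a difference of 0.16 (−0.17 to 0.49). These were chosen after their values were seen, as were Slc12a3, Upk3a, Ucp1, Lrp2, Cubn, Cyp2c11, Cyp24a1, Cyp2e1, Gclc, Cat, Ppp3ca, Ppp3cb, Eng and Icam2, which are named below.

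Single libraries carried much of the count. It was 25 without saline replicate 4, 42, 64 and 79 without saline replicates 1, 2 and 3, and 97 without cyclosporine A replicate 1, while leaving out any of the other 15 libraries gave 168 to 270. Of the 232 genes, all kept their sign in each of the 20 fits that left out a library, which the call itself makes likely. Of the 232, 23 were called in every one of these fits. With the mitochondrial share as a covariate, 0 genes were called in limma and 870 had an unadjusted p under 0.05. The median standard error of the difference was 0.35 in that fit, and the share did not overlap between saline and cyclosporine A libraries. Of the 232 genes, 228 kept their sign there and 84 had an unadjusted p under 0.05 with the same sign. Pf4, Umod and Slc12a1 were among the exceptions in sign. FPKM as deposited follows a different scaling in each table. In the cyclosporine A table it divides by all fragments, mitochondrial ones included (recovered fragments were 100% of the scaling total), and the median-of-ratios factors ran from 0.422 to 1.99. In the tacrolimus table the recovered fragments were 95.5% to 109% of the scaling total and the factors ran from 0.99988 to 1.00036, so these values were already on a scale close to that of the median of ratios. With each table as deposited the median difference of all genes was −0.90, 36 genes were called above 0 and 9820 below 0, and 184 of the 232 genes kept their sign.

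**Figure D2:**
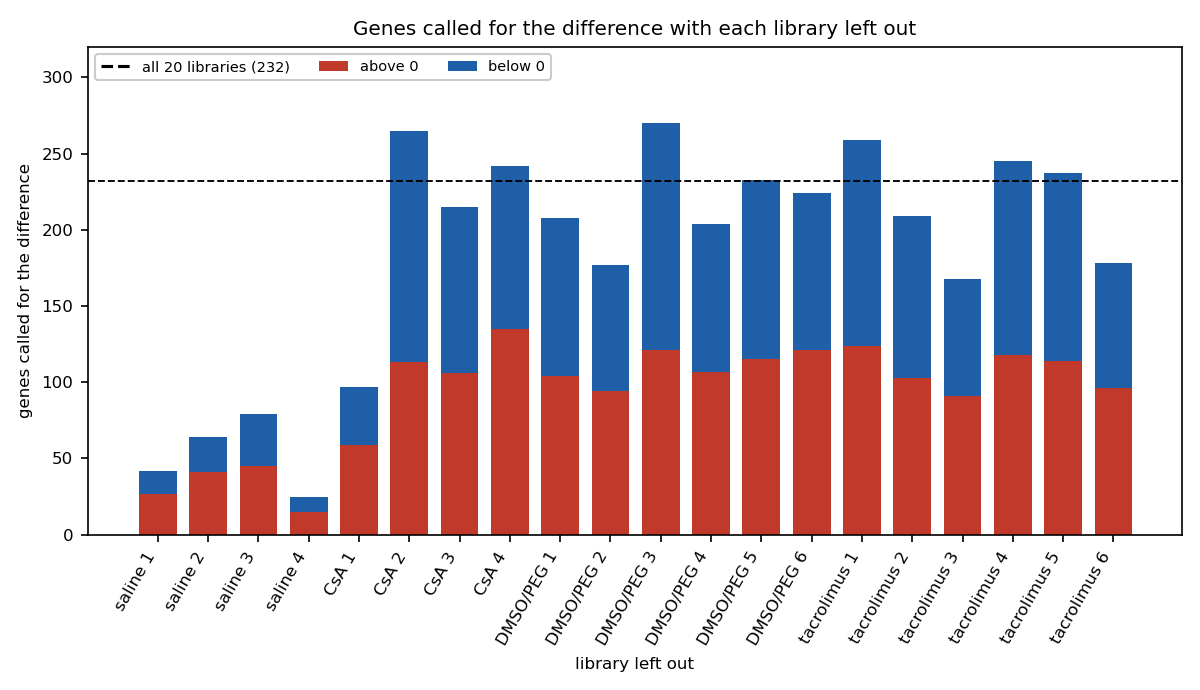
Number of genes called for the difference (y axis) when the library on the x axis was left out, split into differences above 0 (red) and below 0 (blue). The bars for the 4 saline libraries (25 to 79) and for cyclosporine A replicate 1 (97) are the lowest, under the dashed line at 232 for all 20 libraries.

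**Figure D3:**
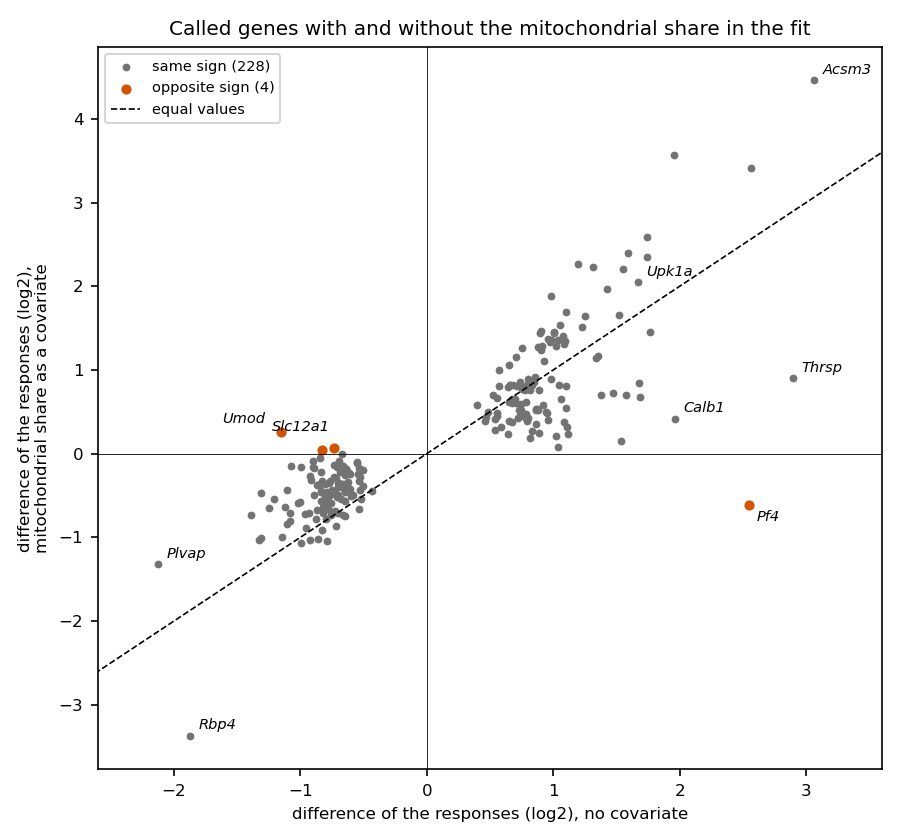
Difference of the responses for the 232 called genes without (x axis) and with (y axis) the mitochondrial share as a covariate, in log2 units. In 228 genes the signs match, and the 4 others (orange) include Pf4, Umod and Slc12a1.

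The distal convoluted tubule, where thiazide-sensitive salt uptake and magnesium uptake take place, held the list with the most called members. Of 15 genes listed, 14 were tested and 5 were called, all above 0, where 0.936% of all tested genes were. Differences above 0 were found for 13 of the 14 (50.8% of all genes tested), with a list median of 0.47 against 0.00 over all genes, and on FPKM as deposited the list median was −0.39 against −0.90 over all genes. The median response of the list was −0.70 to tacrolimus and −0.07 to cyclosporine A, and 8 members were called with tacrolimus and 1 with cyclosporine A, where 0.304% and 0.554% of all tested genes were. In bulk tissue, fewer cells of a type and less RNA per cell cannot be told apart. The summed level of the list was 2952 to 3319 rescaled FPKM with saline and 2758 to 3219 with cyclosporine A, and 5271 to 7744 with DMSO/PEG and 4405 to 5146 with tacrolimus. Of the 5 called members Calb1 had the highest mean, 55.6 with saline and 198 with DMSO/PEG, so most of the sum came from other members. Pvalb was the member that could not be tested.

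Calb1 encodes calbindin, the calcium buffer of the distal convoluted and connecting tubule. It read 37.5, 62.0, 69.6 and 53.3 rescaled FPKM in the saline libraries and 13.1, 9.55, 13.7 and 24.3 with cyclosporine A. The DMSO/PEG libraries lay between 171 and 234 (median 198) and the tacrolimus libraries between 12.3 and 14.9 (median 12.9). Drug and vehicle libraries were apart in both tables, and the 6 tacrolimus libraries lay close together. Calb1 fell by 1.85 with cyclosporine A (standard error 0.26, limma adjusted p = 0.0231) and fell by 3.81 with tacrolimus (standard error 0.08, limma adjusted p = 5.64e-12). The fall was 1.96 smaller with cyclosporine A (95% interval 1.36 to 2.56, limma adjusted p = 0.00762) and was called without any 1 of the 20 libraries. With the mitochondrial share as a covariate the difference was 0.42 (standard error 0.33, unadjusted p = 0.22).

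Slc8a1, the sodium-calcium exchanger that returns calcium to the blood side, had the smallest p of all genes. Its saline libraries read 0.757, 1.19, 0.580 and 0.932 and its cyclosporine A libraries 0.940, 0.412, 0.670 and 0.648, which overlap. With tacrolimus it lay between 2.80 and 4.14 (median 3.57), against 14.1 to 19.2 (median 15.4) with DMSO/PEG, which do not overlap. It fell by 1.92 with tacrolimus (standard error 0.09, limma adjusted p = 5.82e-08), while its response to cyclosporine A was −0.16 (standard error 0.14, limma adjusted p = 0.623). The difference was 1.76 (95% interval 1.41 to 2.11, limma adjusted p = 4.67e-05), and it was called without any 1 of the 20 libraries. The levels of this gene in the cyclosporine A table are close to the pseudocount of 1, which shrinks a response. With a pseudocount of 0.1 the responses of Slc8a1 were −0.33 and −2.17 and the difference 1.83 (limma adjusted p = 0.0231).

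Trpm6 (the magnesium channel of this segment), Klhl3 and Wnk1 (a ubiquitin ligase adaptor and a kinase that set the activity of the thiazide-sensitive cotransporter) were also lower with tacrolimus than with its vehicle. Trpm6 read 0.706 to 1.01 with saline and 0.489 to 1.22 with cyclosporine A, and 4.20 to 5.75 with DMSO/PEG and 2.21 to 2.55 with tacrolimus. Klhl3 read 0.433 to 1.36 and 0.720 to 1.87, and 6.10 to 8.17 and 2.85 to 3.71, in the same order of groups. Wnk1 read 5.56 to 8.29 and 6.64 to 7.52, and 31.1 to 37.3 and 18.1 to 20.8. For all 3 genes the tacrolimus libraries lay under every DMSO/PEG library, and the cyclosporine A and saline libraries overlapped. They fell with tacrolimus by 0.85, 0.88 and 0.81 (limma adjusted p 5.35e-05, 5.69e-05 and 1.12e-05), and their responses to cyclosporine A were −0.06, 0.24 and 0.01. The differences were 0.79 for Trpm6, 1.12 for Klhl3 and 0.82 for Wnk1 (limma adjusted p 0.0236, 0.0264 and 0.0144). Trpm6 and Klhl3 lost the call without saline replicate 1, 3 or 4, Trpm6 also without saline replicate 2, and Wnk1 without saline replicate 4, with differences of 0.69 to 0.88, 0.95 to 1.27 and 0.73 to 0.90 over the 20 fits. With a pseudocount of 0.1 the calls of Trpm6 (0.92, limma adjusted p = 0.159) and Klhl3 (1.52, limma adjusted p = 0.0905) were lost, and on FPKM as deposited the difference of Wnk1 was −0.34 and that of Trpm6 0.17 (limma adjusted p 0.256 and 0.393). With the mitochondrial share as a covariate the differences were 0.47 for Trpm6 (unadjusted p = 0.18), 0.23 for Klhl3 (unadjusted p = 0.56) and 0.76 for Wnk1 (unadjusted p = 0.036).

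Slc12a3, the thiazide-sensitive cotransporter itself, fell with tacrolimus by 1.24 (limma adjusted p = 1.11e-04). Its difference of 1.51 was not called (95% interval 0.56 to 2.46, limma adjusted p = 0.111), and its response to cyclosporine A was 0.27 with a standard error of 0.42. In the connecting tubule and principal cell list 1 of 17 tested genes was called (0.936% of all tested genes were called above 0), Trpv5, the calcium channel of the luminal membrane. Trpv5 read 0.259 to 0.699 with saline and 0.458 to 1.37 with cyclosporine A, and 2.13 to 3.50 with DMSO/PEG and 1.04 to 1.67 with tacrolimus. It fell with tacrolimus by 0.70 (limma adjusted p = 0.00109), had a response of 0.39 to cyclosporine A (limma adjusted p = 0.269), and differed by 1.09 (95% interval 0.70 to 1.48, limma adjusted p = 0.0105). Without saline replicate 4 the call was lost (limma adjusted p = 0.0599). The list median was 0.38 (−0.80 on FPKM as deposited and 0.15 with the mitochondrial share as a covariate), and 7 of its 17 genes had an unadjusted p under 0.05, all above 0, against 7.29% of all tested genes.

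Of the genes of both distal lists that were called for the difference, the 4 with a single RefSeq promoter entry are shown by the 250 bases upstream of 1 annotated start each, from RefSeq on the GRCr8 assembly, which is not the assembly of the deposited positions (the stretch of chromosome 6 with Slc8a1 runs the other way there). Capitals mark GGAAA, the core that NFAT factors recognise, or its reverse complement TTTCC, searched on both strands with no other motif. Calb1 and Trpm6 are named only. The windows lie at chr6:19023309-19023558 on the plus strand, chr17:6528237-6528486 on the plus strand, chr4:154926148-154926397 on the minus strand and chr4:71529383-71529632 on the minus strand, each printed 5′ to 3′ on the strand of its gene.
Slc8a1: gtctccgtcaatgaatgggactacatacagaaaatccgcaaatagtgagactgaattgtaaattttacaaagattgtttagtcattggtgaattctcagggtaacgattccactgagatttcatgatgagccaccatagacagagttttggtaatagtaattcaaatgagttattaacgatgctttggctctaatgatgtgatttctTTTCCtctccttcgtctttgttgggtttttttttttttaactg
Klhl3: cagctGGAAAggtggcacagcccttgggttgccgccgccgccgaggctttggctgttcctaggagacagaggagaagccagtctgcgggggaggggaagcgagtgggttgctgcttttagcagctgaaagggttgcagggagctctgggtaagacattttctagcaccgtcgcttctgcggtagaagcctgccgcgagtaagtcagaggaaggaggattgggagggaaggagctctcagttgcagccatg
Wnk1: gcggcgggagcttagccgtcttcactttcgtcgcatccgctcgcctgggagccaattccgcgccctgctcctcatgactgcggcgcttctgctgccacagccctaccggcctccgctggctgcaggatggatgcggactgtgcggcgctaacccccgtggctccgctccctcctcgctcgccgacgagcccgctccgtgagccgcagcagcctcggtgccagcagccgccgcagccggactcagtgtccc
Trpv5: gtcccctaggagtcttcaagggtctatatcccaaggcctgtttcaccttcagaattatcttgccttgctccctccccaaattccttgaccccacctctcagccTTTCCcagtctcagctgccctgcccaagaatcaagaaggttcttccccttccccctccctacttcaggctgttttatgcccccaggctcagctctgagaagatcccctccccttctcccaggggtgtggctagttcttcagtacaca
The windows of Slc8a1, Klhl3 and Trpv5 hold 1 match each and that of Wnk1 holds 0. A match is held by 56.9% of all 33469 RefSeq windows, as do 53.3% of the 9909 windows found by symbol for tested genes. A window was found for 86 of the 120 genes called above 0, of which 57 (66.3%) hold a match, and for 89 of the 112 called below 0, of which 43 (48.3%) do. A match of 5 letters is common in windows of this length and is a description, not a binding site.

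**Figure D4:**
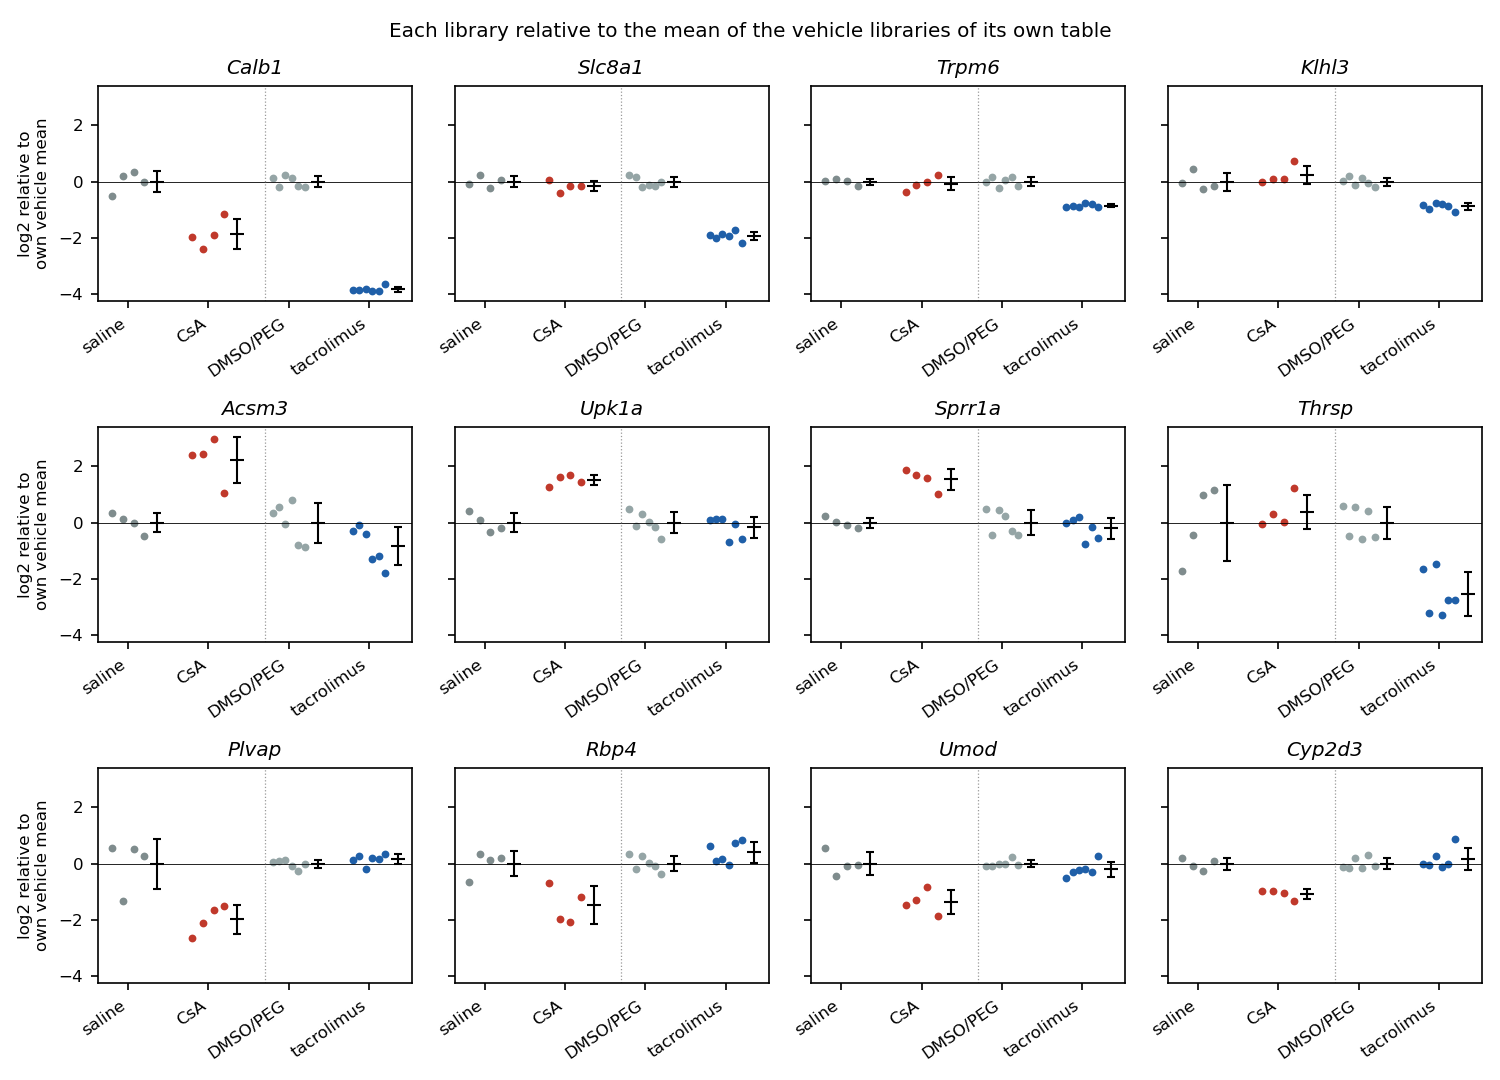
Each of 12 genes in each library, as log2(rescaled FPKM + 1) minus the mean of the vehicle libraries of the same table (y axis), with the mean and SD of each group in black. Slc8a1, Trpm6, Klhl3 and Thrsp are low with tacrolimus and Calb1 with both drugs, Acsm3, Upk1a and Sprr1a are high with cyclosporine A, and Plvap, Rbp4, Umod and Cyp2d3 are low with cyclosporine A.

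Of 8 tested genes of the urothelium, the lining of the renal pelvis, 2 were called, both above 0 (0.936% of all tested genes were). All 8 differences were above 0 (50.8% of all tested genes), from 0.11 to 1.74 with a median of 0.80, and the other 6 were not called. Upk1a, a uroplakin of the luminal membrane, read 2.02, 1.40, 0.816 and 0.964 with saline and 4.46, 6.01, 6.35 and 5.15 with cyclosporine A, which do not overlap. With DMSO/PEG it lay between 3.58 and 8.62 (median 5.59) and with tacrolimus between 3.25 and 6.46 (median 5.97). Upk1a rose by 1.52 with cyclosporine A (standard error 0.18, limma adjusted p = 0.0231), its response to tacrolimus was −0.16, and it differed by 1.67 (95% interval 1.12 to 2.22, limma adjusted p = 0.00327). Sprr1a, a cornified envelope precursor of stressed epithelia, read 1.46, 1.11, 1.00 and 0.857 with saline and 6.61, 5.76, 5.34 and 3.22 with cyclosporine A. It rose by 1.54 (standard error 0.19, limma adjusted p = 0.0231), and differed by 1.74 (95% interval 1.16 to 2.32, limma adjusted p = 0.00327). Both genes were called without any 1 of the 20 libraries, and with the mitochondrial share as a covariate their differences were 2.05 (unadjusted p = 5.4e-04) and 2.35 (unadjusted p = 9.7e-05). Upk3a had a difference of 1.54 that was not called (limma adjusted p = 0.0508). The summed level of the list was 36.4 to 48.6 rescaled FPKM with saline and 55.8 to 64.6 with cyclosporine A, and 109 to 171 with DMSO/PEG and 121 to 144 with tacrolimus. The other 4 genes of the list were too low to be tested. Upk2 had mean rescaled FPKM of 0.115 with saline and 1.56 with cyclosporine A, and Upk3b of 0.0123 and 0.121. Krt20 and Krt17 had means of 0.135 and 0.00474 with saline, where they were listed at 0 in 1 and 3 of the 4 libraries, and were listed at 0 in all 4 cyclosporine A libraries. Whether the amount of pelvic lining in the samples has a part in this was not tested.

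Fat cell genes had a list median of 1.44 over 10 tested genes, the highest of the lists here and on FPKM as deposited (0.70), while the urothelium list was higher with the mitochondrial share as a covariate (1.40 against 1.02) and with a pseudocount of 0.1 (1.85 against 1.76). Of the 10 genes, 3 were called and 9 had an unadjusted p under 0.05, all above 0 (0.936% and 7.29% of all tested genes). The median response of the list was −1.09 to tacrolimus and 0.19 to cyclosporine A. Retn, the adipokine resistin, read 0.0547, 0.274, 0.937 and 0.530 with saline and 0.926, 5.04, 3.05 and 1.21 with cyclosporine A, with overlap at 1 library. With DMSO/PEG it lay between 2.77 and 7.19 (median 5.64) and with tacrolimus between 0.499 and 3.26 (median 1.02). It fell with tacrolimus by 1.39 (limma adjusted p = 0.0416), its response to cyclosporine A was 1.18 (limma adjusted p = 0.136), and it differed by 2.56 (95% interval 1.66 to 3.46, limma adjusted p = 0.0076). Thrsp, a regulator of fatty acid synthesis, fell with tacrolimus by 2.52 (limma adjusted p = 0.0026), from 29.4 to 67.5 down to 3.62 to 15.4. In the cyclosporine A table Thrsp spread from 0.594 to 10.7 with saline and from 4.14 to 11.5 with cyclosporine A, and its difference of 2.90 (95% interval 1.49 to 4.31, limma adjusted p = 0.0384) lost its call without any of 7 libraries, namely saline replicate 1, 2 or 4 or any cyclosporine A replicate (2.32 to 3.28 over the 20 fits). With the mitochondrial share as a covariate the difference of Thrsp was 0.91 (unadjusted p = 0.49). Cidea, a lipid droplet protein of brown fat, fell with tacrolimus by 1.36 (limma adjusted p = 0.0231) and differed by 1.59 (95% interval 0.80 to 2.38, limma adjusted p = 0.0377). It was called in 11 of the 20 fits and lost without any saline replicate, cyclosporine A replicate 1, 2 or 3, or DMSO/PEG replicate 1 or 2 (1.42 to 1.90 over all fits). With a pseudocount of 0.1 the calls of Thrsp (limma adjusted p = 0.067) and Cidea (limma adjusted p = 0.132) were lost. Ucp1, the uncoupling protein of brown fat, was not tested because it was too low in the cyclosporine A table, with means of 0.308 with saline and 0.124 with cyclosporine A. In the tacrolimus table its means were 15.1 with DMSO/PEG and 0.619 with tacrolimus. The summed level of the list varied within groups, from 143 to 490 rescaled FPKM with DMSO/PEG, 76.4 to 280 with tacrolimus, 38.2 to 81.8 with saline and 45.8 to 81.6 with cyclosporine A. Whether the amount of fat on the kidneys has a part in these differences was not tested.

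Acsm3, a mitochondrial acyl-CoA synthetase for medium-chain fatty acids, had the largest difference of the 232. Its saline libraries read 4.52, 3.79, 3.34 and 2.19 and its cyclosporine A libraries 22.4, 23.0, 33.4 and 8.04, which are apart. With DMSO/PEG it lay between 46.8 and 152 (median 97.7) and with tacrolimus between 24.6 and 82.9 (median 51.2), which overlap. It rose by 2.23 with cyclosporine A (standard error 0.35, limma adjusted p = 0.0318), had a response of −0.84 to tacrolimus (standard error 0.35, limma adjusted p = 0.479), and differed by 3.06 (95% interval 2.04 to 4.08, limma adjusted p = 0.00327). Acsm3 was called without any 1 of the 20 libraries, and its difference with the mitochondrial share as a covariate was 4.46 (unadjusted p = 2.9e-05). Eri2, an exonuclease gene, differed by 1.96 (95% interval 0.96 to 2.96, limma adjusted p = 0.0446), and was called in 8 of the 20 fits. The losses came without any saline replicate, cyclosporine A replicate 1, 2 or 3, tacrolimus replicate 4 or 6, or DMSO/PEG replicate 1, 2 or 4 (1.69 to 2.41 over the 20 fits), and with a pseudocount of 0.1 (limma adjusted p = 0.058). Its deposited position (chromosome 1, 189540145 to 189549891, minus strand) overlaps that of Acsm3 (chromosome 1, 189514553 to 189541224, plus strand). Strand use in the counting is not given in the sources used here, so reads of both genes cannot be told apart in the overlap.

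The other genes with the largest differences above 0 were Pf4, Fam151a, Defb11 and Spink1l. Pf4, the platelet chemokine, read 11.97, 43.0, 17.8 and 23.4 with saline and 52.5, 43.9, 84.3 and 256 with cyclosporine A, where replicate 4 stands far above the rest, and 3.28 to 10.2 with DMSO/PEG and 1.84 to 6.00 with tacrolimus. Its difference was 2.55 (95% interval 1.29 to 3.80, limma adjusted p = 0.0416) in all libraries and −0.61 (unadjusted p = 0.40) with the mitochondrial share as a covariate. It lost its call without any saline replicate, cyclosporine A replicate 1 or 3, tacrolimus replicate 6 or DMSO/PEG replicate 2 (2.02 to 2.87 over the 20 fits). Defb11, a beta-defensin, read 1.60 to 2.91 with saline and 3.53 to 9.11 with cyclosporine A, and 2.40 to 5.61 with DMSO/PEG and 1.35 to 3.04 with tacrolimus. It differed by 1.68 (95% interval 1.06 to 2.29, limma adjusted p = 0.00775) and was called in all 20 fits, with responses of 1.08 and −0.59 that were not called on their own (limma adjusted p 0.0716 and 0.277). Fam151a differed by 1.74 (limma adjusted p = 0.0377) and Spink1l, a trypsin inhibitor homologue, by 1.55 (limma adjusted p = 0.035). Fam151a lost its call without saline replicate 1, 3 or 4 or cyclosporine A replicate 1, 2 or 3, and Spink1l without any saline replicate or cyclosporine A replicate 1. Defensins and serine protease inhibitors belong to multigene families whose members can share reads.

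Among the called differences below 0 the largest was that of Plvap, the diaphragm protein of fenestrated endothelium. It read 19.0, 4.52, 18.5 and 15.4 with saline and 1.22, 2.17, 3.44 and 3.87 with cyclosporine A, so saline replicate 2 lies near the drug libraries without reaching them. With DMSO/PEG it lay between 77.2 and 102 (median 94.3) and with tacrolimus between 81.4 and 117 (median 104.5). The response was −1.97 to cyclosporine A (standard error 0.40, limma adjusted p = 0.0622) and 0.16 to tacrolimus, and the difference was −2.12 (95% interval −3.03 to −1.21, limma adjusted p = 0.035). Plvap lost its call without saline replicate 1, 3 or 4 or cyclosporine A replicate 1 or 2 (−2.56 to −1.90 over the 20 fits). Of the 13 tested endothelial genes it was the 1 called (0.873% of all tested genes were called below 0), and the list median was −0.02. The other members lay between −0.65 (Eng, limma adjusted p = 0.088) and 0.46 (Icam2, limma adjusted p = 0.42).

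Rbp4, the retinol carrier of plasma, read 33.9, 68.5, 59.2 and 61.6 with saline and 33.4, 13.2, 12 and 23.5 with cyclosporine A. It lay between 41.1 and 67.6 with DMSO/PEG (median 52.6) and between 51.6 and 96.8 with tacrolimus (median 72.1). The difference was −1.87 (95% interval −2.63 to −1.11, limma adjusted p = 0.0194), and it was −3.37 with the mitochondrial share as a covariate (unadjusted p = 9.5e-05). The call was lost without saline replicate 2, 3 or 4 (limma adjusted p up to 0.0722). Fjx1, a secreted kinase homologue of the planar polarity pathway, read 7.79, 8.24, 7.17 and 6.91 with saline and 2.35, 3.41, 3.08 and 2.35 with cyclosporine A, 2 narrow and separate groups. It fell by 1.18 (standard error 0.13, limma adjusted p = 0.0231), and its difference of −1.33 (95% interval −1.69 to −0.97, limma adjusted p = 9.45e-04) was called in all 20 fits.

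Slc16a9, a carnitine transporter of the monocarboxylate family, read 5.90, 6.85, 5.32 and 5.68 with saline and 2.87, 2.72, 2.99 and 1.78 with cyclosporine A, and 47.0 to 67.4 with DMSO/PEG and 66.2 to 82.9 with tacrolimus. It fell by 0.96 with cyclosporine A (limma adjusted p = 0.0301), its response to tacrolimus was 0.35 (limma adjusted p = 0.129), and its difference was −1.31 (95% interval −1.67 to −0.95, limma adjusted p = 0.00304) and was called in all 20 fits. Slc23a3, an orphan transporter, read 23.3 to 30.1 with saline and 9.52 to 16.8 with cyclosporine A, and its difference of −1.14 (95% interval −1.52 to −0.76, limma adjusted p = 0.00762) was called in all 20 fits too. The differences of Ptprn (−1.31, limma adjusted p = 0.0141), Megf11 (−1.20, 0.042), Chst2 (−1.12, 0.0393) and Serpinf1 (−1.10, 0.0351) were called in 18, 12, 14 and 15 of the 20 fits. Ptprn is a protein of secretory granules, Megf11 an adhesion receptor, Chst2 a sulfotransferase and Serpinf1 an inhibitor of vessel growth. Each lost its call without saline replicate 4, and the other losses involved saline replicates 1, 2 and 3, cyclosporine A replicates 1 to 4 and, for Megf11, tacrolimus replicate 6. Megf11 also lost it with a pseudocount of 0.1 (limma adjusted p = 0.0505).

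In the thick ascending limb 2 of 13 tested genes were called, both below 0 (0.873% of all tested genes were), with a list median of −0.10. Umod, the urinary protein uromodulin, read 471, 234, 299 and 304 with saline and 113, 130, 178 and 87.7 with cyclosporine A, and 1828 to 2292 with DMSO/PEG and 1380 to 2365 with tacrolimus. It fell by 1.35 with cyclosporine A (limma adjusted p = 0.0474), and its difference was −1.16 (95% interval −1.74 to −0.57, limma adjusted p = 0.0449). Slc12a1, the loop diuretic-sensitive cotransporter, read 63.1, 46.3, 65.9 and 67.8 with saline and 29.1, 35.6, 37.5 and 22.9 with cyclosporine A. It fell by 0.94 (limma adjusted p = 0.0478), and its difference was −0.83 (95% interval −1.23 to −0.43, limma adjusted p = 0.0434). Both signs turned with the mitochondrial share as a covariate, to 0.26 for Umod (unadjusted p = 0.46) and 0.04 for Slc12a1 (unadjusted p = 0.88). Umod was called in 9 of the 20 fits and lost without any saline replicate, cyclosporine A replicate 1, 2 or 4, tacrolimus replicate 3 or 6, or DMSO/PEG replicate 1 or 2 (−1.33 to −0.97). Slc12a1 was called in 15 and lost without saline replicate 1, 3 or 4, cyclosporine A replicate 1 or DMSO/PEG replicate 2 (−0.95 to −0.69).

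Of 24 tested proximal tubule genes 6 had a difference above 0 (50.8% of all tested genes) and 18 below. An unadjusted p under 0.05 was found below 0 for 7 and above 0 for 3 (8.8% and 7.29% of all tested genes). The list median of −0.29 turned to 0.68 with the mitochondrial share as a covariate, so its direction depends on the fit. The 1 called gene lay above 0 (0.936% of all tested genes were called above 0). Slc5a2, the glucose transporter SGLT2, rose by 0.94 with cyclosporine A (limma adjusted p = 0.0362) and differed by 0.88 (95% interval 0.51 to 1.25, limma adjusted p = 0.0256). Its saline libraries were at 0.110 to 0.501 rescaled FPKM and its cyclosporine A libraries at 0.855 to 1.86, near the pseudocount, and it read 130 to 163 with tacrolimus. Slc5a2 lost its call without saline replicate 1, 3 or 4 or cyclosporine A replicate 1 (0.80 to 1.01 over the 20 fits), and with a pseudocount of 0.1 its difference was 2.04 (limma adjusted p = 0.0368). Lrp2 and Cubn, the receptors that take up filtered protein, had differences of −0.60 (limma adjusted p = 0.20) and −0.64 (limma adjusted p = 0.066).

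In the ammonia and glucose production list 2 of 18 tested genes were called above 0 and 1 below (0.936% and 0.873% of all tested genes), 10 lay above 0 and 8 below, and the median was 0.01. Glul, glutamine synthetase, read 274, 295, 324 and 296 with saline and 178, 188, 152 and 150 with cyclosporine A, and 946 to 1205 with DMSO/PEG and 1070 to 1269 with tacrolimus. It fell by 0.83 with cyclosporine A (limma adjusted p = 0.0231) and differed by −0.96 (95% interval −1.25 to −0.66, limma adjusted p = 0.00327). Sat1, the rate-limiting enzyme of polyamine breakdown, read 92.5, 95.6, 101 and 87.6 with saline and 135, 136, 147 and 129 with cyclosporine A, and 151 to 183 with DMSO/PEG and 123 to 155 with tacrolimus. It rose by 0.53 with cyclosporine A (limma adjusted p = 0.0467), had a response of −0.26 to tacrolimus (limma adjusted p = 0.159), and differed by 0.79 (95% interval 0.55 to 1.04, limma adjusted p = 0.00327). Glul and Sat1 were called in all 20 fits, but on FPKM as deposited the difference of Sat1 was −0.53. Slc7a7, a subunit of a cationic amino acid exporter, rose by 1.41 with cyclosporine A (limma adjusted p = 0.0318), from 1.43 to 2.56 up to 3.77 to 8.42, and differed by 1.38 (95% interval 0.87 to 1.89, limma adjusted p = 0.017), a call lost without saline replicate 1 or 4 (limma adjusted p up to 0.0694).

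Drug-metabolising enzymes had the lowest list median, −0.64 over 15 tested genes, which turned to 0.11 with the mitochondrial share as a covariate. The median response was −0.52 to cyclosporine A and 0.13 to tacrolimus, 13 of the 15 differences were below 0, and 9 had an unadjusted p under 0.05, all below 0, where 8.8% of all tested genes did. The 1 called gene (0.873% of all tested genes were called below 0) was Cyp2d3, at 48.4, 39.6, 34.2 and 44.9 with saline and 20.7, 20.6, 19.5 and 16.0 with cyclosporine A, and at 17.5 to 24.5 with DMSO/PEG and 18.0 to 37.2 with tacrolimus. It fell by 1.08 with cyclosporine A (limma adjusted p = 0.0231), and its difference of −1.24 (95% interval −1.66 to −0.83, limma adjusted p = 0.00327) was called in all 20 fits. Cyp2c11 (−2.15), Cyp24a1, the enzyme that inactivates vitamin D hormone (−2.05), and Cyp2e1 (−1.35) had larger differences with larger errors (limma adjusted p 0.075, 0.073 and 0.079). Members of these families can share reads.

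In the antioxidant and glutathione list 1 of 20 tested genes was called, below 0 (0.873% of all tested genes were), 7 had an unadjusted p under 0.05 below 0 and 1 above (8.8% and 7.29% of all tested genes), 9 lay above 0 and 11 below, and the median was −0.09. Gclm, the regulatory subunit of the rate-limiting enzyme of glutathione synthesis, read 449, 472, 441 and 408 with saline and 265, 354, 278 and 180 with cyclosporine A, and 669 to 922 with DMSO/PEG and 827 to 1026 with tacrolimus. Its difference was −0.89 (95% interval −1.33 to −0.46, limma adjusted p = 0.0431), it was called in 13 of the 20 fits (lost without any saline replicate, cyclosporine A replicate 1 or 3, or tacrolimus replicate 3), and with the mitochondrial share as a covariate it was −0.17 (unadjusted p = 0.66). The catalytic subunit Gclc (−0.91) and catalase, Cat (−0.66), were not called (limma adjusted p 0.063 and 0.051).

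Of 15 tested genes of calcineurin, its Rcan regulators and NFAT, 1 was called, above 0 (0.936% of all tested genes were). Rcan1, a feedback inhibitor of calcineurin that NFAT induces, read 4.05, 5.92, 5.42 and 5.44 with saline and 7.83, 8.69, 7.37 and 9.91 with cyclosporine A, and 54.7 to 92.6 with DMSO/PEG and 44.6 to 80.9 with tacrolimus. Its difference was 0.86 (95% interval 0.44 to 1.28, limma adjusted p = 0.035). The call was lost without any saline replicate or cyclosporine A replicate 1 (0.77 to 0.97), and the difference was −0.29 on FPKM as deposited. Of the list 5 genes had an unadjusted p under 0.05 below 0 (8.8% of all tested genes did), among them the calcineurin subunits Ppp3ca (−0.45) and Ppp3cb (−0.34), and neither was called (limma adjusted p 0.17 and 0.21). In the immunophilin list, which holds the drug-binding families, 0 of 19 genes were called in limma and 5 had an unadjusted p under 0.05 (1.81% and 16.1% of all tested genes), with Fkbp9 (−0.47, limma adjusted p = 0.0709) and Fkbp5 (0.74, −0.24 on FPKM as deposited, limma adjusted p = 0.175) the lowest in p.

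Single genes of other lists were called, where 1.81% of all tested genes were. These were 1 of 20 tested fibroblast and matrix genes (Sfrp2), 1 of 17 clock genes (Hlf) and 1 of 13 glucocorticoid responsive genes (Errfi1). The others were 1 of 22 homeobox and patterning genes (Hoxb4) and 1 of 18 hypoxia responsive genes (Hk2). Sfrp2, a secreted Wnt modulator of fibroblasts, fell with tacrolimus by 1.51 (limma adjusted p = 5.93e-05), and its response to cyclosporine A was −0.56 (limma adjusted p = 0.121). It read 0.512 to 1.27 with saline and 0.0227 to 0.403 with cyclosporine A, and 5.84 to 12 with DMSO/PEG and 1.77 to 3.04 with tacrolimus, with no overlap in either table. The difference of 0.96 (limma adjusted p = 0.0221) became 0.11 with a pseudocount of 0.1 (limma adjusted p = 0.95) and −0.62 in limma voom on recovered fragments, so its sign depends on the scale. The call was also lost without saline replicate 2, 3 or 4 (0.86 to 1.10 over the 20 fits). Hlf, a clock-controlled transcription factor, read 2.09 to 4.16 with saline and 0 to 1.38 with cyclosporine A, and differed by −1.39 (95% interval −1.998 to −0.78, limma adjusted p = 0.0355). It lost the call without any saline replicate or cyclosporine A replicate 3 (−1.55 to −1.13) and with a pseudocount of 0.1 (limma adjusted p = 0.138). Errfi1, a glucocorticoid-induced inhibitor of the EGF receptor, rose by 1.20 with cyclosporine A (limma adjusted p = 0.0231), from 6.94 to 8.16 up to 13.5 to 24.7, and differed by 1.33 (95% interval 0.75 to 1.92, limma adjusted p = 0.0194), a call lost without saline replicate 4 (limma adjusted p = 0.0599). Hoxb4, a patterning factor, rose by 1.21 (limma adjusted p = 0.0231), from 6.05 to 8.81 up to 13.1 to 22.5, and differed by 0.98 (limma adjusted p = 0.0332). Hoxb4 had a difference of −0.24 on FPKM as deposited and lost its call without any saline replicate or cyclosporine A replicate 1, 2 or 3 (0.88 to 1.14).

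The hexokinase Hk2 fell with tacrolimus by 0.52 (limma adjusted p = 0.0181) and differed by 0.46 (limma adjusted p = 0.039), at 0.191 to 0.281 rescaled FPKM in the cyclosporine A table and 0.956 to 1.21 with tacrolimus against 1.58 to 2.81 with DMSO/PEG. It was called in 8 of the 20 fits, in none of those without a saline library, and with a pseudocount of 0.1 the limma adjusted p was 0.355. A gene identifier with the symbol Uqcrb, a subunit of respiratory complex III, differed by 0.57 (limma adjusted p = 0.0393), by −0.75 on FPKM as deposited, and was called in 10 of the 20 fits. Another identifier carries the same symbol, so its reads are uncertain. It was the 1 called of 34 tested nuclear subunits of the respiratory chain (0.936% of all tested genes were called above 0), whose list median was 0.02, beside the mitochondrial share given above.

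Responses of opposite sign, each with an unadjusted p under 0.05 and at least 1 of them called, were found for 14 genes. The 10 with the smallest p of the difference were Slc16a9, Sat1, Acsm3, Akr1c15, Retn, Gprc5c, Cdkl1, Trpv5, Ptprn and Slc17a5. Opposite responses and a small p chose these genes, so their calls are a description. Cdkl1, a kinase of cilia, read 27.5, 29.7, 27.9 and 25.9 with saline and 87.1, 63.9, 71.0 and 40.4 with cyclosporine A, and 91.7 to 108 with DMSO/PEG and 77.2 to 93.5 with tacrolimus. It rose by 1.16 with cyclosporine A (limma adjusted p = 0.0362), had a response of −0.27 to tacrolimus (limma adjusted p = 0.114), and differed by 1.43 (95% interval 0.98 to 1.87, limma adjusted p = 0.00837), or by 0.13 on FPKM as deposited (limma adjusted p = 0.743). Gprc5c, an orphan receptor of the proximal tubule, fell by 0.69 with cyclosporine A (limma adjusted p = 0.0362), had a response of 0.14 to tacrolimus, and differed by −0.83 (limma adjusted p = 0.00762). Akr1c15, an aldo-keto reductase, fell by 0.62 with tacrolimus (limma adjusted p = 0.00735), had a response of 0.31 to cyclosporine A, and differed by 0.93 (limma adjusted p = 0.00471). In the cyclosporine A table Akr1c15 met the minimum for testing through the drug libraries, with 1 saline library above it, so its response there is bound to the choice of tested genes. Slc17a5, the lysosomal sialic acid exporter, rose by 0.37 with tacrolimus (limma adjusted p = 0.039), had a response of −0.71 to cyclosporine A (limma adjusted p = 0.104), and differed by −1.08 (limma adjusted p = 0.0208), a call lost without saline replicate 1, 2 or 4 or cyclosporine A replicate 1. Its drug and vehicle libraries were apart in both tables, lower with cyclosporine A (3.23 to 5.17 against 5.68 to 9.76) and higher with tacrolimus (43.3 to 51.8 against 31.2 to 40.8).

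Several lists held no called gene in limma. In the podocyte list 0 of 12 genes were called, 6 had an unadjusted p under 0.05, all above 0 (7.29% of all tested genes), and the median was 0.32, or −0.05 with the mitochondrial share as a covariate. Synpo, a protein of the podocyte cytoskeleton, came nearest (0.89, limma adjusted p = 0.0819), and its difference was 0.00 with the mitochondrial share as a covariate. The summed level of the list was 9.17 to 15.1 rescaled FPKM with saline and 11.2 to 32.7 with cyclosporine A. For the other lists the share of all tested genes with such a p was 16.1%. Also at 0 called were the tubular injury list (9 of 19 genes with an unadjusted p under 0.05, 7 of them above 0, with Krt8 at −0.49 and Anxa2 at 0.59), the immediate early list (2 of 18, with Klf6 at 0.78 and Btg2 at 0.53), the endoplasmic reticulum stress list (3 of 20, with Xbp1 at −0.43 and Edem1 at −0.50) and the cell cycle list (3 of 17, with Cdk1 at 1.00 and Top2a at 0.31). The fatty acid oxidation list had 5 of 26 such genes, with Ehhadh at −0.83 and Ppargc1a at 0.68, and the lipid synthesis list 6 of 17, with Fasn at 0.92 and Me1 at −0.55. Differences of uncalled genes moved too with the mitochondrial share as a covariate, such as Ehhadh to −0.10, Ppargc1a to 0.02, Btg2 to 0.09, Fkbp9 to −0.08 and Aqp6 to −1.74. Smooth muscle and renin cells (Mcam 0.40, Des 0.53), intercalated cells (Aqp6 −0.65, Atp6v1g3 0.63), thin limb and inner medulla (S100a6 1.02), leukocytes (C1qb 0.99, Cd4 0.47) and vasoactive genes (Mme −0.53, Edn1 0.40) had 3 of 11, 2 of 12, 7 of 16, 1 of 14 and 2 of 15.

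The values of further called genes named above moved by over 1.5 times, or their calls were lost, in other fits. With the mitochondrial share as a covariate the difference was smaller for Defb11 (0.84), Slc7a7 (0.70), Rcan1 (0.36), Plvap (−1.32), Hlf (−0.73), Ptprn (−0.47), Cyp2d3 (−0.64), Megf11 (−0.54), Chst2 (−0.63), Gprc5c (−0.44) and Slc17a5 (−0.71). It was larger for Eri2 (3.56) and Cidea (2.40). The list medians also moved in that fit, to −0.20 for endothelium, −0.00 for the thick ascending limb, 0.48 for ammonia and glucose production, −0.03 for the antioxidant list and 0.35 for the respiratory chain. With a pseudocount of 0.1 the podocyte median was 0.75. On FPKM as deposited, where the median of all genes was −0.90, the calls above 0 of Errfi1 (0.11), Spink1l (0.27), Slc7a7 (0.36), Slc5a2 (0.40), Hk2 (0.21) and Defb11 (0.64) were lost, with limma adjusted p of 0.789, 0.521, 0.213, 0.0585, 0.161 and 0.0625. Other differences above 0 were also smaller on that scale, namely those of Acsm3 (1.92), Thrsp (1.85), Pf4 (1.25), Eri2 (1.06), Fam151a (0.97), Cidea (0.87), Sprr1a (0.84), Upk1a (0.73), Calb1 (0.68), Trpv5 (0.65), Akr1c15 (0.60), Sfrp2 (0.56) and Klhl3 (0.50). The named calls below 0 were larger there, from −2.08 for Hlf to −3.19 for Plvap. With a pseudocount of 0.1 the difference was 4.24 for Retn, 2.08 for Akr1c15, 1.92 for Trpv5 and −2.47 for Hlf. A pseudocount of 5, which shrinks the differences of low genes, lowered those of Retn, Eri2, Fam151a, Sprr1a, Defb11, Upk1a, Cidea, Plvap, Hlf, Fjx1, Slc16a9, Ptprn, Megf11, Chst2, Slc5a2, Trpm6, Klhl3, Trpv5, Slc7a7, Hk2 and Akr1c15 by over 1.5 times, and the calls of Pf4, Slc5a2 and Rcan1 were lost.

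Without the filter on low values the calls of Thrsp, Pf4, Eri2, Fam151a, Cidea, Spink1l, Plvap, Hlf, Megf11, Umod, Chst2, Serpinf1, Slc12a1 and Gclm were lost. In limma voom on recovered fragments those of Thrsp, Defb11, Cidea, Plvap, Hlf, Chst2, Trpm6, Klhl3, Sfrp2, Hk2 and Akr1c15 were lost, and the differences of Retn, Fam151a, Slc5a2, Trpv5, Hlf and Akr1c15 were over 1.5 times larger. With FPKM per nuclear fragments the lost calls were those of Thrsp, Cidea, Hlf, Trpm6, Klhl3, Sfrp2 and Hk2, and the differences of Slc5a2 and Akr1c15 were over 1.5 times larger. The limma fit with arrayWeights lost those of Thrsp, Megf11, Umod, Chst2 and Serpinf1.

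**Figure D5:**
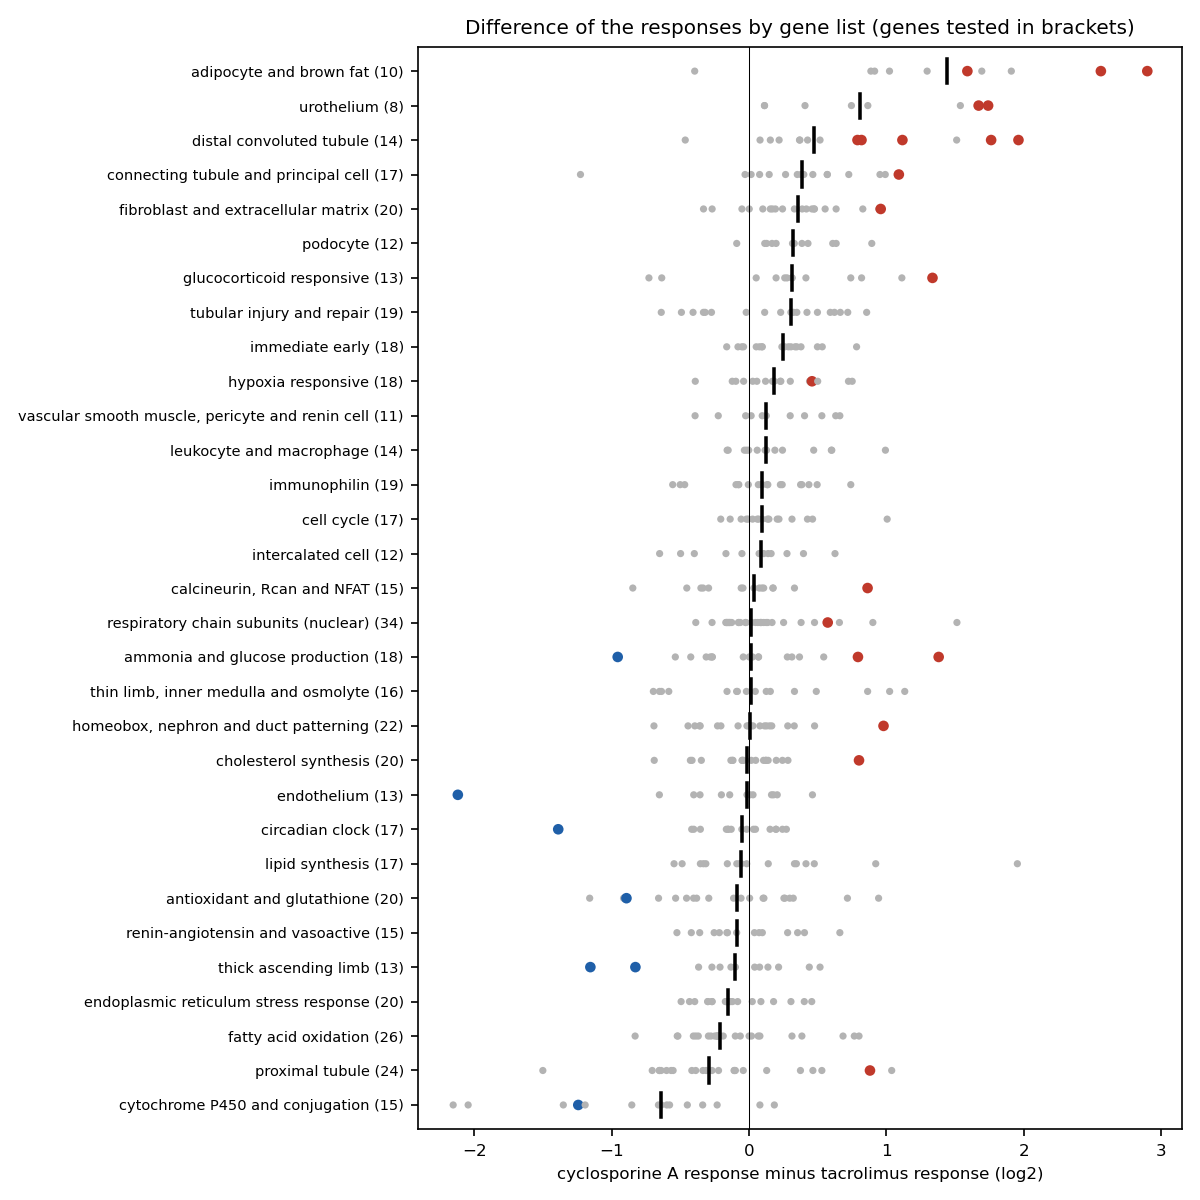
Difference of the responses (x axis, log2) for the tested genes of 31 lists, with the list median as a black bar, called genes above 0 in red and below 0 in blue, and other genes in grey. Fat cell (1.44), urothelium (0.80) and distal convoluted tubule (0.47) lists have the highest medians (0.70, 0.33 and −0.39 on FPKM as deposited, and 1.02, 1.40 and 0.33 with the mitochondrial share as a covariate) and the drug-metabolising enzymes (−0.64, or 0.11 with the mitochondrial share as a covariate) the lowest.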

How the data were processed

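Total RNA of whole kidneys was sequenced in 20 libraries, and reads were aligned with HISAT2 to rn6, per the submitters' processing notes. The authors deposited FPKM per gene in 1 table for each drug, scaled to all fragments of a library in the cyclosporine A table and close to the median of ratios in the tacrolimus table (from the values), and the counting program and its strand setting are not given in the sources used here. Multiplying FPKM by length gave whole fragments (tolerance 0.001) for 100% of values above 0 in the tacrolimus table and 74.1% in the cyclosporine A table, where 4445 of 18892 detected genes were whole only with a length shorter than the one listed. Genes were joined by identifier, and 84.4% of members had the same symbol in both tables. FPKM was rescaled by the median of ratios over nuclear genes within each table and tested as log2(FPKM + 1), which understates changes of low genes. A gene was tested with at least 10 fragments, scaled to the table's median nuclear total, in at least 4 libraries of the cyclosporine A table and 6 of the tacrolimus table. Of the 232 called genes, 6 passed in 1 table through 1 group with at most 1 library of the other group, among them Akr1c15 and Defb9, and such a gene had to differ in that table.

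Each response was fitted in its own table with limma 3.58.1 (R 4.3.3, empirical Bayes with a trend), the variances of both responses were added with Satterthwaite degrees of freedom, and 2-sided p-values were adjusted by Benjamini-Hochberg over 12825 genes, with a call at an adjusted p under 0.05. The steps were tested on simulated data. The genes named are the 12 largest called differences in each direction with a mean of at least 1 FPKM in a group of each table and the same sign without each library, the called members of the 31 gene lists (the 2 smallest p where a list has none), and up to 10 genes with opposite responses. Some genes that meet this rule are not reported here. Genes named outside this rule are said to be chosen after their values were seen. The members and lists were chosen with earlier results of these data known. Alternatives covered the scaling, the pseudocount, the filter, the model, a replicate block, the mitochondrial share as a covariate, and each library left out.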

Additional observations from a re-analysis of the deposited data

Results flagged for a closer look

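In 18 of 292 groups of 4 or 6 libraries tested, 1 library lay far from the others by Dixon's criterion, where chance gives about 1 in 20. Among called genes, Plvap read 4.52 in saline replicate 2 against 15.4 to 19.0 in the other saline libraries, Klhl3 read 1.87 in cyclosporine A replicate 4 against 0.720 to 0.858, and Sfrp2 read 1.27 in saline replicate 1 against 0.512 to 0.595. Calb1 read 14.9 in tacrolimus replicate 6 against 12.3 to 13.1, and Serpinf1 read 190 in the same library against 118 to 135. Umod read 2292 in DMSO/PEG replicate 5 against 1828 to 1940, and Gclm read 1026 in tacrolimus replicate 3 against 827 to 896. All values are rescaled FPKM.

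The other groups belonged to genes that were not called. C1qb and Cd4, genes of macrophages and T cells, both stood out in DMSO/PEG replicate 2, at 46.7 against 14.3 to 21.7 and at 24.6 against 10.2 to 12.2, and Cd4 also in cyclosporine A replicate 4, at 3.97 against 1.52 to 1.80. Mme, the protease neprilysin, was low in DMSO/PEG replicate 3 (78.5 against 109 to 123) and in tacrolimus replicate 2 (93.5 against 117 to 132). Synpo was at 0.967 in saline replicate 3 against 0.309 to 0.393, S100a6 at 32.6 in saline replicate 2 against 61.5 to 65.4, and Xbp1 at 18.9 in saline replicate 4 against 21.5 to 21.9. Des was at 1.61 in cyclosporine A replicate 1 against 3.49 to 3.70, Ppargc1a at 1.17 in cyclosporine A replicate 2 against 2.62 to 3.00, and Klf6 at 3.75 in tacrolimus replicate 6 against 5.24 to 6.19.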

How the results depend on the processing

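The count of 232 called differences was 230 with upper quartile scaling, 213 with FPKM per nuclear fragments, 208 and 257 with pseudocounts of 0.1 and 5, 165 without a filter, 266 with a stricter one, 267 in limma voom and 260 with arrayWeights, and moved to 542 (226 above 0, 316 below 0) in 1 fit over all 20 samples. It was 9856 on FPKM as deposited (36 above 0, 9820 below 0), where the scaling of the tables differs, and 0 with the mitochondrial share as a covariate. The share above 0, 51.7% here, was 41.7% in 1 fit over all 20 samples and 0.365% on deposited FPKM. Leaving out 1 library gave 25 to 270 called genes, 15 to 135 of them above 0 and 10 to 152 below 0. The 71 cyclosporine A calls became 10645 on deposited FPKM, 107 with FPKM per nuclear fragments, 0 without a filter, 123 with a stricter one, 1375 in 1 fit, 214 in voom, 160 with arrayWeights, 2 with the covariate and 0 to 143 without 1 library. The 39 tacrolimus calls became 91 with arrayWeights, 26 with a stricter filter and 29 to 40 without 1 library. The mitochondrial share difference stayed between 21.0 and 27.3 points without any 1 library. A sign turned with the covariate for Pf4 (−0.61), Umod (0.26), Slc12a1 (0.045), Synpo (−0.00025), Atp6v1g3 (−0.60), C1qb (−0.35), Cd4 (−0.38) and Mme (0.12). On deposited FPKM it turned for Wnk1 (−0.34), Rcan1 (−0.29), Sat1 (−0.53), Uqcrb (−0.75), Hoxb4 (−0.24), Nes (−0.013), Mcam (−0.22), Des (−0.37), Atp6v1g3 (−0.69), S100a6 (−0.30), Cd4 (−0.38), Anxa2 (−0.69), Btg2 (−0.55), Fkbp5 (−0.24), Edn1 (−0.074), Ppargc1a (−0.20) and Top2a (−0.047), and in voom for Sfrp2 (−0.62). The cause was not tested beyond each setting's own construction. With the replicate number as a replicate block 216 genes were called (104 above 0), 158 of them among the 232, with 6 cyclosporine A and 36 tacrolimus calls. Deviations of same-numbered libraries correlated at −0.17 to 0.22. The vehicle library of the same number was the closest for cyclosporine A replicates 1 and 4 and tacrolimus replicates 1 and 2, and not for the others. The labels do not say whether such libraries share more than a number. Of the 46 named genes that were called, 30, 24, 22, 20 and 19 lost their call without saline replicates 4, 1, 3 and 2 and cyclosporine A replicate 1. Cyclosporine A libraries held 2905839 to 6549282 nuclear fragments, and the part of depth in these results was not tested.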

Other observations

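Several genes outside the naming rule were called for the difference without any 1 of the 20 libraries, and they are given here after their values were seen. Gss, the second enzyme of glutathione synthesis, had mean rescaled FPKM of 184 with saline and 101 with cyclosporine A, and 257 with DMSO/PEG and 273 with tacrolimus, a difference of −0.96 (limma adjusted p = 0.00498). Ahcy, which clears S-adenosylhomocysteine, had means of 58.3 and 31.5, and 110 and 107, a difference of −0.82 (limma adjusted p = 0.0076). Tomm70, an import receptor of the mitochondrial outer membrane, had means of 9.23 and 5.40, and 40.1 and 42.4, a difference of −0.75 (limma adjusted p = 0.00764). Aldh1a1, a retinaldehyde dehydrogenase, went the other way, with means of 45.8 and 72.0, and 217 and 205, a difference of 0.73 (limma adjusted p = 0.00775), which was −0.58 on FPKM as deposited. Tested against saline, Gss, Ahcy, Tomm70 and Aldh1a1 were called with cyclosporine A in limma (adjusted p 0.0231, 0.0231, 0.03 and 0.0318). Without saline replicate 3 or 4 or cyclosporine A replicate 1, 0 genes were called for the cyclosporine A response in limma, so these 4 were not either.

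On the tacrolimus side, Stk32a, a kinase, fell by 0.80 (limma adjusted p = 9.2e-04) and P2ry1, a receptor for extracellular ADP, fell by 0.95 (limma adjusted p = 0.00219). Their differences were 0.86 and 0.89 (limma adjusted p 0.00327 and 0.0144), called in 20 and 19 of the 20 fits that left out a library. The epithelial defensins Defb1 and Defb9 also fell with tacrolimus, by 0.94 and 1.14 (limma adjusted p 8.49e-05 and 0.00233), with means of 316 and 2.10 with DMSO/PEG and 164 and 0.438 with tacrolimus. Their means were 374 and 1.78 with saline and 365 and 2.51 with cyclosporine A, and their differences were 0.87 and 1.47 (limma adjusted p 0.0355 and 0.0208), called in 14 and 17 of the 20 fits. On FPKM as deposited the difference of Defb1 was −0.46. Defb9 passed the filter in its table through the DMSO/PEG libraries alone, so a fall with tacrolimus is bound to its being tested. Defensin genes can share reads.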
